A study of Mus musculus with 12 samples.

Results

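The EGR, NR4A and IER genes and Maff are early response genes, which cells can switch on within minutes to hours of a stimulus without first making new protein. The 10 members were taken by name: Egr1, Egr2 and Egr3, Nr4a1, Nr4a2 and Nr4a3, Ier2, Ier3 and Ier5, and Maff, out of 37583 gene IDs counted. The rule itself is a list of names and holds no measured value, though it was set with earlier results of these data known, and 10 of the 10 passed the filter on low counts, with between 1990 (Egr3) and 33119 (Egr1) reads over 12 libraries. The libraries were made from Ocy454 cells, a mouse osteocyte-like line, in 4 groups of 3 replicates. Control cells (named original cells in the labels) and cells carrying deletions of HDAC4 and HDAC5 (DKO) were grown without agitation (static) or under 3 h of fluid flow shear stress (FFSS). Class IIa histone deacetylases such as HDAC4 and HDAC5 hold back transcription while in the nucleus.

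Per the study's methods, both genotypes stem from 1 single-cell sub-clone that carries a temperature-sensitive T antigen, and both were moved from the permissive to the higher temperature before use. Gene deletion in this line used Cas9 and guide RNA lentiviruses, the methods describe control cells as given a lentivirus without a guide, and FFSS was applied by orbital rotation of the dishes on a heated platform. Whether the DKO cells are 1 clone is not given in the sources used here. Genotype and cell line cannot be told apart in this design, nor can flow and the other effects of agitation. The labels do not say whether replicates were separate cultures, so p-values measure the spread between these samples, which may be technical.

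The EGR proteins are zinc finger transcription factors that bind GC-rich sites and are restrained by the corepressors Nab1 and Nab2. The NR4A proteins are orphan nuclear receptors that act on the NBRE, a response element they can bind as monomers. No classical ligand is needed for their activity, which follows largely from how much of them is made. In cells of the osteoblast lineage, parathyroid hormone and other signals that raise cyclic AMP are known to induce NR4A genes. Ier2 and Ier5 encode related proteins of the IER family, to which Ier5l also belongs, Ier3 shares the name but is unrelated in sequence, and Maff encodes a small MAF protein, which pairs with CNC factors such as Nfe2l2 and Bach1.

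Between 17.6 and 19.2 M reads per library were assigned to genes, so a floor of 3 counts was at most 0.171 CPM (counts per 1 M assigned reads), well under every member. The replicates of control FFSS did not form 1 cluster. The chi-square of counts over genes, per degree of freedom, was 60.6 for replicates 1 and 2 and 55.3 for replicates 1 and 3, against 1.93 to 6.24 for the other 10 pairs of replicates. The share of reads outside annotated genes was 5.10 to 5.21% in control static libraries, 5.87, 9.19 and 10.04% in control FFSS replicates 1, 2 and 3, 7.07 to 7.14% in DKO static and 7.93 to 8.55% in DKO FFSS libraries. Hdac5 had 2421 to 2706 counts in control static and 1461 to 1634 in DKO static libraries, and the first of 2 Hdac4 gene IDs (ENSMUSG00000026313) had 458 to 550 and 220 to 309. Under FFSS the Hdac5 ranges overlapped, with 1457 to 1755 counts in control and 1553 to 1687 in DKO libraries (edgeR log2 fold change 0.19 ± 0.079 SE, adjusted p = 0.0512), while that Hdac4 ID had 597 to 860 and 214 to 250, so transcripts of the targeted genes were present in DKO libraries. Gene-level counts include exons outside any deleted stretch and do not check the deletion. Of 6 osteocyte markers (Dmp1, Sost, Phex, Mepe, Pdpn and Fgf23), the summed level was 62.5 to 184 CPM in control and 3602 to 4025 CPM in DKO libraries. Pdpn went the other way, with 27.6 to 51.3 CPM in control and at most 7.96 CPM in DKO libraries. Fgf23 had at most 1 count in any library and Mepe at most 4 in any control library.

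The 10 genes differed widely in level under static conditions. In CPM per kilobase of exon, Ier3, a regulator of cell survival, was highest in control static cells with 61.5 ± 2.62, followed by Egr1 with 51.7 ± 2.67 and Ier2 with 40.9 ± 0.816 (SD, n = 3 each). Maff had 35.3 ± 1.32, Ier5 25.4 ± 1.33 and Nr4a1 12.4 ± 0.386 on the same scale. The remaining 4 genes were under 5, with 4.65 ± 0.582 for Egr2, 2.8 ± 0.359 for Egr3, 2.13 ± 0.135 for Nr4a2 and 0.547 ± 0.00775 for Nr4a3. The replicate ranges of neighbouring genes in this order were apart in control static cells. In control FFSS cells the ranges of Ier3 and Ier2 and those of Maff and Ier5 overlapped.

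In DKO static cells the order per length was different. Nr4a1 stood in the third place, against the sixth in control static cells, with 31.3 ± 1.24 CPM per kilobase, and its range overlapped that of Egr1 (34.1 ± 5.17), whose range overlapped that of Ier3 (35.9 ± 6.07). Egr2 was the lowest member in DKO cells, with 3.399 ± 0.440 static and 3.97 ± 0.576 under FFSS, whereas Nr4a3 was the lowest in both control groups.

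**Figure D1:**
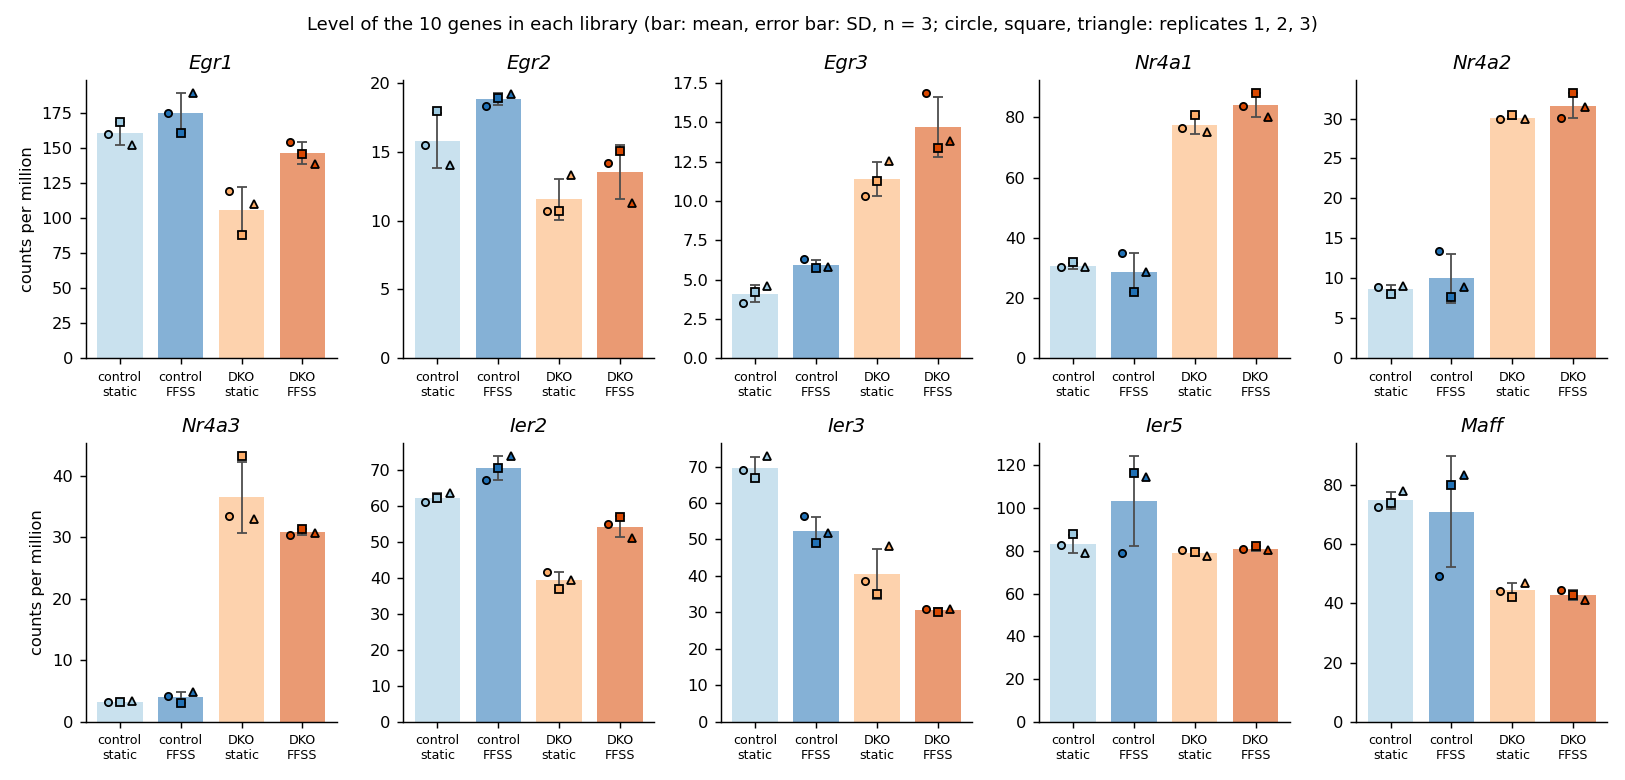
Level of the 10 genes in CPM (linear axes from 0, a scale for each gene) in control static, control FFSS, DKO static and DKO FFSS cells. Bars are means, error bars SD (n = 3), and circles, squares and triangles replicates 1, 2 and 3. Egr3, Nr4a1, Nr4a2 and Nr4a3 have every DKO library above every control library, and replicate 1 of control FFSS is apart from replicates 2 and 3 for Ier5 and Maff.

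To determine how early response genes stood after 3 h of flow, control FFSS libraries were compared with control static libraries by edgeR's quasi-likelihood test, with p-values adjusted over 14904 genes by the Benjamini-Hochberg method. Of the members, 3 were higher by the adjusted p threshold of 0.05 (Egr3, Ier2 and Ier5), 1 was lower (Ier3), and 6 did not pass. Over all genes tested, 17.7% were higher and 18.1% lower by the same rule, so 4 of 10 is close to the share of all genes. None of the 10 changed by more than 2-fold, against 5.93% of all genes that passed both limits. By limma-voom and by DESeq2 the number past both limits was also 0, and 4 members had an unadjusted edgeR p under 0.05. For 41.3% of all genes the ranges of the FFSS and static libraries did not overlap. The median log2 fold change was 0.19 over the 10 members and 0.0073 over all genes tested.

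Of the EGR genes, only Egr3 passed in control cells. Egr3 (ENSMUSG00000033730, mm9 chr14:70477252-70479964, plus strand) encodes a factor known from lymphocytes and muscle spindles. It had 3.54, 4.22 and 4.58 CPM in control static replicates 1, 2 and 3 and 6.32, 5.76 and 5.79 CPM in control FFSS replicates. Every FFSS library was above every static library, and the gene rose (edgeR log2 fold change 0.53 ± 0.14 SE, adjusted p = 0.0105), a 1.45-fold change. Egr1 (ENSMUSG00000038418, mm9 chromosome 18), the most highly counted member, had 160.0, 169 and 152 CPM in static and 175, 160.5 and 189 CPM in FFSS libraries. The ranges overlapped and the difference did not pass (edgeR log2 fold change 0.13 ± 0.095 SE, adjusted p = 0.324). Egr2 (ENSMUSG00000037868, mm9 chr10:66998223-67004936, plus strand), known for its role in peripheral myelin, had 15.5, 17.9 and 14.0 CPM static and 18.3, 18.9 and 19.2 CPM under FFSS. Its FFSS libraries all lay above its static libraries, by a margin that did not pass (edgeR log2 fold change 0.25 ± 0.12 SE, adjusted p = 0.121). Scaled by library totals alone, which moved the median of all genes to 0.13, Egr2 passed (log2 fold change 0.38, edgeR adjusted p = 0.0319). Without control FFSS replicate 1, the library that stood apart, Egr2 passed (log2 fold change 0.27, edgeR adjusted p = 0.0430) and Egr3 still did (log2 fold change 0.49, edgeR adjusted p = 0.00917).

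None of the NR4A genes passed in control cells, and their FFSS replicates were spread. Nr4a1 (ENSMUSG00000023034, mm9 chr15:101097277-101105223, plus strand), also called Nur77, had 30.2, 31.9 and 30.3 CPM in static and 34.9, 22.1 and 28.7 CPM in FFSS replicates 1, 2 and 3. The FFSS values lay on both sides of the narrow static range (edgeR log2 fold change −0.11 ± 0.12 SE, adjusted p = 0.508). Nr4a2 (ENSMUSG00000026826, mm9 chr2:56959241-56976414, minus strand), also called Nurr1, had 8.93, 8.02 and 9.002 CPM static and 13.5, 7.67 and 8.91 CPM under FFSS, where replicate 1 was the highest (edgeR log2 fold change 0.21 ± 0.16 SE, adjusted p = 0.326). Nr4a3 (ENSMUSG00000028341, mm9 chr4:48058025-48099319, plus strand), also called Nor1, had 3.22, 3.28 and 3.32 CPM static and 4.11, 3.08 and 4.85 CPM under FFSS (edgeR log2 fold change 0.29 ± 0.17 SE, adjusted p = 0.200). Replicate 1 held the highest control FFSS value of Nr4a1 and Nr4a2, and replicate 2 the lowest value of each of the 3 genes. Without replicate 1 Nr4a1 was lower under FFSS and passed (log2 fold change −0.28, edgeR adjusted p = 0.00623), and Nr4a2 changed sign without passing (log2 fold change −0.063, edgeR adjusted p = 0.657).

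The IER genes moved in both directions. Ier2 (ENSMUSG00000053560, mm9 chr8:87185230-87186751, minus strand), which encodes a nuclear protein, had 60.9, 62.2 and 63.4 CPM static and 67.1, 70.4 and 73.7 CPM under FFSS. The groups did not overlap and the gene rose slightly (edgeR log2 fold change 0.18 ± 0.065 SE, adjusted p = 0.0447), a 1.13-fold change. Ier3 (ENSMUSG00000003541, mm9 chr17:35958629-35959868, plus strand) was the member that fell, from 68.9, 66.99 and 72.8 CPM to 56.5, 48.9 and 51.8 CPM. All its FFSS libraries were below all its static libraries (edgeR log2 fold change −0.41 ± 0.10 SE, adjusted p = 0.00574), a level 1.33-fold lower. Ier5 (ENSMUSG00000056708, mm9 chr1:156943497-156946766, minus strand), linked to activity of the heat shock factor Hsf1, had 82.6, 87.8 and 79.2 CPM static and 79.2, 116 and 114 CPM under FFSS. Replicate 1 lay within the static range and replicates 2 and 3 above it, and the gene passed in the fit of all libraries (edgeR log2 fold change 0.31 ± 0.11 SE, adjusted p = 0.0425). Without replicate 1 the 3 genes passed, Ier2 with log2 fold change 0.21, edgeR adjusted p = 0.00460, Ier3 with log2 fold change −0.47, edgeR adjusted p = 4.19e-05 and Ier5 with log2 fold change 0.47, edgeR adjusted p = 1.47e-08.

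The calls of Ier2 and Ier5 in control cells were close to the threshold. Leaving out replicate 2 of control FFSS gave edgeR adjusted p = 0.0840 for Ier2 and edgeR adjusted p = 0.170 for Ier5, and leaving out replicate 3 gave edgeR adjusted p = 0.141 and edgeR adjusted p = 0.166. Each of the 3 control static libraries, left out in turn, also left both genes short of the threshold, with edgeR adjusted p between 0.0841 and 0.119 for Ier2 and between 0.0624 and 0.132 for Ier5. Leaving out any single DKO library, which bears on this comparison through the shared spread and the set of genes tested, moved Ier5 to edgeR adjusted p between 0.0586 and 0.0592. For Ier2, leaving out DKO static replicate 1 or 3 or DKO FFSS replicate 1 or 2 gave edgeR adjusted p between 0.0512 and 0.0638. Ier2 also failed to pass with RLE size factors, DESeq2, the replicate block, no filter on low counts or the 6 libraries alone, with adjusted p from 0.0540 (DESeq2) to 0.113. Ier5 failed to pass with limma-voom, no filter or the 6 libraries alone, with adjusted p from 0.0581 to 0.160. With the share of reads outside genes as a covariate the log2 fold change was 0.096 for Ier2 and −0.29 for Ier3, neither past the threshold, and −0.15 for Ier5, with the opposite sign. In the same fit Nr4a2 passed with a log2 fold change of 0.72 (edgeR adjusted p = 0.00228). This share was itself higher under FFSS, and its part in the result was not tested.

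Maff (ENSMUSG00000042622, mm9 chr15:79177971-79189502, plus strand) had FFSS replicates on both sides of its static range. It had 72.6, 73.8 and 77.96 CPM in static and 49.3, 79.9 and 83.4 CPM in FFSS replicates 1, 2 and 3. Replicate 1 was the lower one and replicates 2 and 3 the higher ones (edgeR log2 fold change −0.077 ± 0.15 SE, adjusted p = 0.720). Without replicate 1 the log2 fold change was 0.13, edgeR adjusted p = 0.0723. With the share of reads outside genes as a covariate Maff was lower and passed (log2 fold change −0.71, edgeR adjusted p = 4.58e-05), and the cause was not tested. With replicate 1 left out, 6 of the 10 members passed in control cells, in place of 4, while the share of all genes that passed went from 35.8% to 54.98%.

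**Figure D2:**
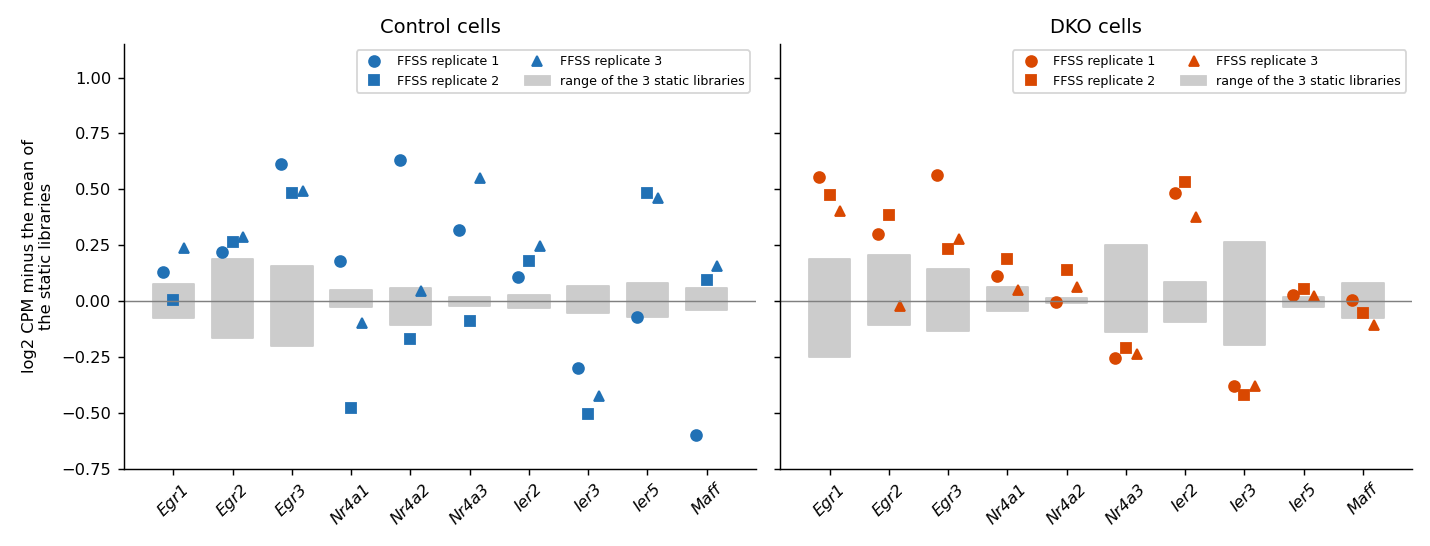
Difference of each FFSS library from the mean of the static libraries of the same genotype, in log2 CPM, for the 10 genes in control (left) and DKO cells (right). Circles, squares and triangles are FFSS replicates 1, 2 and 3, and grey boxes span the 3 static libraries. In control cells replicate 1 is the highest for Nr4a2 and the lowest for Maff and Ier5. In DKO cells the 3 replicates of Egr1, Ier2, Ier3 and Nr4a3 lie close together outside the grey boxes. Those of Egr3 and, by a small margin, Ier5 also lie outside them.

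In DKO cells 3 h of FFSS was followed by higher Egr1 and Ier2. These were 2 of the 10 members, and 0 passed in the lower direction (1 by DESeq2, 0 by limma-voom), against 0.376% of all genes higher and 0.497% lower. None changed by more than 2-fold by edgeR, DESeq2 or limma-voom, against 0.0872% of all genes, and 4 had an unadjusted edgeR p under 0.05. Ranges of FFSS and static libraries did not overlap for 29.9% of all genes. The median log2 fold change was 0.092 over the members and −0.0094 over all genes tested.

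Egr1 had 119, 88.02 and 109.7 CPM in DKO static replicates 1, 2 and 3 and 154, 146 and 139 CPM in DKO FFSS replicates. The groups did not overlap and the gene rose (edgeR log2 fold change 0.47 ± 0.10 SE, adjusted p = 0.0414), a 1.38-fold change. Ier2 had 41.6, 36.8 and 39.5 CPM static and 54.9, 56.7 and 50.97 CPM under FFSS, again with no overlap (edgeR log2 fold change 0.46 ± 0.066 SE, adjusted p = 0.00670), a 1.38-fold change. Egr3 had 10.3, 11.3 and 12.6 CPM static and 16.9, 13.4 and 13.8 CPM under FFSS. All its FFSS libraries were the higher ones, but the difference did not pass over all genes (edgeR log2 fold change 0.37 ± 0.12 SE, adjusted p = 0.180). Ier3 had 38.5, 35.1 and 48.3 CPM static and 30.9, 30.04 and 30.9 CPM under FFSS, with a fold change almost equal to that in control cells (edgeR log2 fold change −0.41 ± 0.10 SE, adjusted p = 0.0761) that did not pass here. Ier3 passed with DESeq2 (adjusted p = 0.0160), no filter on low counts (edgeR adjusted p = 0.0235) and the 6 libraries alone (edgeR adjusted p = 0.00927). In these fits 2.68, 0.751 and 11.2% of all genes passed. Egr3 also passed with the 6 libraries alone (edgeR adjusted p = 0.0145). The call of Egr1 was lost with the replicate block (log2 fold change 0.47, edgeR adjusted p = 0.0548). It was also lost when any 1 of 8 libraries was left out, with edgeR adjusted p between 0.0700 and 0.173. Among fits with 1 library left out, it was kept only without DKO static replicate 1 or a control FFSS replicate. Without DKO FFSS replicate 2 Ier2 did not pass either (log2 fold change 0.43, edgeR adjusted p = 0.0545). Leaving out control FFSS replicate 1, which is not part of this comparison, took Egr3 (edgeR adjusted p = 0.0217) and Ier3 (edgeR adjusted p = 0.00221) past the threshold, 4 members in all. The share of all genes that passed went from 0.872% to 10.5%, and the cause was not tested. With the share of reads outside genes as a covariate Egr3, Ier3 (edgeR adjusted p = 0.0305 and 0.0185) and Maff (log2 fold change −0.25, edgeR adjusted p = 0.0251) passed too, with 9.95% of all genes.

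The other members moved little in DKO cells. Egr2 had 10.7, 10.7 and 13.3 CPM static and 14.2, 15.05 and 11.3 CPM under FFSS. Nr4a1 had 76.4, 80.9 and 74.99 and 83.7, 88.1 and 80.2 CPM, and Nr4a2 29.97, 30.4 and 30.0 and 30.1, 33.2 and 31.4 CPM. The 2 genes overlapped between static and FFSS libraries. Nr4a3 had 33.5, 43.2 and 32.9 CPM static and 30.4, 31.3 and 30.8 CPM under FFSS, all FFSS values being below the static ones (edgeR log2 fold change −0.24 ± 0.12 SE, adjusted p = 0.400). Ier5 was almost constant, with 80.2, 79.6 and 77.6 and 80.7, 82.2 and 80.3 CPM, and Maff had 44.2, 42.1 and 46.99 and 44.5, 42.7 and 41.2 CPM. Of these 6 genes Nr4a3 had the smallest edgeR adjusted p for FFSS in DKO cells.

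Whether the response differed between genotypes was tested as an interaction, the FFSS effect in DKO cells less that in control cells. By edgeR 0 of the 10 members passed, against 2.28% of all genes in the higher and 1.68% in the lower direction, and 0 passed with more than a 2-fold difference, against 0.651% of all genes. In all, 3 members had an unadjusted p under 0.05. Ier2 had the smallest adjusted p (interaction edgeR log2 fold change 0.29 ± 0.093 SE, adjusted p = 0.0975), Nr4a3 was in the opposite direction (interaction edgeR log2 fold change −0.54 ± 0.21 SE, adjusted p = 0.148), and Egr1 ranked next (interaction edgeR log2 fold change 0.34 ± 0.14 SE, adjusted p = 0.151). By DESeq2 1 member passed and by limma-voom 0. Without control FFSS replicate 1, 3 members passed: Nr4a1 (interaction log2 0.39, edgeR adjusted p = 0.00376), Ier2 (interaction log2 0.25, edgeR adjusted p = 0.0217) and Ier5 (interaction log2 −0.44, edgeR adjusted p = 2.17e-05). In that fit 37.6% of all genes passed, so 3 of 10 is no more than the share of all genes. With the share of reads outside genes as a covariate Ier2 (interaction log2 0.34, edgeR adjusted p = 0.0358) and Maff (interaction log2 0.46, edgeR adjusted p = 0.00949) passed, with 5.86% of all genes. The FFSS effects of Egr1, which passed in DKO and not in control cells, are therefore not shown to differ.

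Between genotypes more members passed, and by larger changes. In static cells, 4 members were higher in DKO than in control cells, Egr3 and the 3 NR4A genes, and each was higher by more than 2-fold. A further 5 were lower by the adjusted p alone (Egr1, Egr2, Ier2, Ier3 and Maff), and Ier5 did not pass. Over all genes tested 27.0% were higher and 27.2% lower, and 15.3% passed with more than a 2-fold change. The median log2 fold change was −0.26 over the members and 0.010 over all genes tested, since the members split into 2 directions.

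The NR4A genes rose together, and the gene with the lowest control level showed the largest change. Nr4a3 was at 3.27 ± 0.0464 CPM in control and 36.5 ± 5.76 CPM in DKO cells when static (SD, n = 3 each). The lowest DKO library, with 32.9 CPM, was far above the highest control library, with 3.32 CPM (edgeR log2 fold change 3.48 ± 0.15 SE, adjusted p = 4.1e-10), an 11.1-fold difference. Nr4a2 was at 8.65 ± 0.547 and 30.1 ± 0.241 CPM (edgeR log2 fold change 1.80 ± 0.15 SE, adjusted p = 2.77e-07), 3.48-fold higher. Nr4a1 was at 30.8 ± 0.955 and 77.4 ± 3.07 CPM (edgeR log2 fold change 1.33 ± 0.12 SE, adjusted p = 5.35e-07), 2.52-fold higher. Egr3, at 4.11 ± 0.527 and 11.4 ± 1.11 CPM, was the 1 EGR gene that moved with them (edgeR log2 fold change 1.47 ± 0.13 SE, adjusted p = 5.55e-07), 2.77-fold higher. The replicate ranges of control and DKO cells were apart for each of these 4 genes in both conditions, as they were for 69.0% of all genes tested in static and 58.4% in FFSS cells.

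Because the NR4A genes moved together, the DNA before their starts is shown. RefSeq promoter windows of 250 bases before to 50 bases after a start (GRCm38.p6) were given for 7 of the 10 members (Ier3, Ier5, Maff, Egr2, Nr4a1, Nr4a2 and Nr4a3). Each stretch printed here was placed by exact match in mm9. Capitals mark the CRE core site (TGACG on either strand), the EGR site (GCGNGGGCG on either strand) and the MEF2 site and the CArG box by name. For Nr4a3 the stretch stops where an annotated exon begins.
Nr4a1, mm9 chr15:101097027-101097276, plus strand: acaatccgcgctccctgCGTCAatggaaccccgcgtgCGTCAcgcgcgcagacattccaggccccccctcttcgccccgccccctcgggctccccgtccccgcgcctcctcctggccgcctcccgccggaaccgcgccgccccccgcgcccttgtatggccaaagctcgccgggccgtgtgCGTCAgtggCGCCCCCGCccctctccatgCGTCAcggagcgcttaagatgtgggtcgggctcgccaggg
Nr4a2, mm9 chr2:56976415-56976664, minus strand: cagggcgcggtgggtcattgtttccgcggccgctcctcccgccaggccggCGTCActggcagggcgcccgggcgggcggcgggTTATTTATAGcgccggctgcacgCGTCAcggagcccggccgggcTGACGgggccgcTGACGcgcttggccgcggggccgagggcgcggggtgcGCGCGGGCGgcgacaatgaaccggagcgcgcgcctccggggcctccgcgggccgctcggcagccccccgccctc
Nr4a3, mm9 chr4:48057927-48058024, plus strand: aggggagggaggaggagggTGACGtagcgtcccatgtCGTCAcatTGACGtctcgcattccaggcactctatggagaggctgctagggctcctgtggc

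The CRE core site is the core of the element bound by CREB family factors. It was found 4 times in the window of each NR4A gene, counting both strands, and the fourth match of Nr4a3 lay in the annotated exon. Of 32851 windows of the same length, 20.8% held at least 1 and 0.231% held 4 or more, a limit chosen after the matches were seen. An EGR site was present once in the Nr4a1, once in the Nr4a2 and once in a Maff window (88 bases before the start, not printed), and in 5.55% of all windows. A MEF2 site, the element of the MEF2 factors that class IIa deacetylases bind, was present once in the Nr4a2 window and in 3.19% of all windows. No window of a member held an NBRE (AAAGGTCA, 1.51% of all windows) or an AP-1 site (TGANTCA, 7.81%). These matches are a description of letters, and binding was not measured.

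Of the other members with a window, Egr2 and Maff held matches and Ier3 and Ier5 held none of the elements searched. One stretch of 30 bases is printed for each, with a CArG box, the element of serum response factor, in Egr2 and a full CRE (TGACGTCA, which holds an overlapping core site on each strand) in Maff.
Egr2, mm9 chr10:67000541-67000570, plus strand: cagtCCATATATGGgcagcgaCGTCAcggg
Maff, mm9 chr15:79177910-79177939, plus strand: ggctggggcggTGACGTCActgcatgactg

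These stretches do not hold every match. In the window of the Egr2 stretch another CRE core site lay 111 bases before the start, another Egr2 window held a CArG box 72 bases before its start, and another Maff window a CRE core site 122 bases before its start. A CArG box was present in 1.63% and a full CRE in 1.79% of all windows. Both genes were lower in DKO static cells, as given next.

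Most of the remaining members were lower in DKO static cells, by less than 2-fold. Ier3 was at 69.6 ± 2.96 CPM in control static and 40.6 ± 6.86 CPM in DKO static cells (edgeR log2 fold change −0.78 ± 0.10 SE, adjusted p = 1.18e-05), 1.71-fold lower. Maff was at 74.8 ± 2.801 and 44.4 ± 2.46 CPM (edgeR log2 fold change −0.75 ± 0.15 SE, adjusted p = 0.00116), 1.68-fold lower. Ier2 was at 62.2 ± 1.24 and 39.3 ± 2.41 CPM (edgeR log2 fold change −0.66 ± 0.066 SE, adjusted p = 1.27e-06), 1.58-fold lower. For these 3 genes no DKO library, static or FFSS, reached the lowest control library of either condition. Among static libraries alone this also held for Egr1 and Egr2. Egr1 was at 160.2 ± 8.27 and 106 ± 16.01 CPM (edgeR log2 fold change −0.60 ± 0.10 SE, adjusted p = 0.000117), 1.52-fold lower, and Egr2 at 15.8 ± 1.98 and 11.5 ± 1.496 CPM (edgeR log2 fold change −0.45 ± 0.13 SE, adjusted p = 0.00744), 1.37-fold lower. Ier5 was the member that did not pass, with 83.2 ± 4.36 and 79.1 ± 1.36 CPM (edgeR log2 fold change −0.072 ± 0.11 SE, adjusted p = 0.619). With the share of reads outside genes as a covariate it was lower and passed (log2 fold change −0.34, edgeR adjusted p = 0.000135).

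The markers of cell state differed between the genotypes as well. Summed over 4 chondrocyte markers (Col2a1, Acan, Sox9 and Col10a1), the level was 50.1 to 102 CPM in control and 2002 to 2945 CPM in DKO libraries, with Col2a1 at 0.781 to 11.6 and 1423 to 2090 CPM. Acan did not follow, with 1.07 to 6.95 CPM in control and 2.88 to 6.55 CPM in DKO libraries. The 5 osteoblast markers (Runx2, Sp7, Alpl, Col1a1 and Bglap) summed to 17155 to 20738 CPM in control static libraries. They summed to 5998 to 16919 CPM in control FFSS and 50184 to 57869 CPM in DKO libraries. Myeloid and osteoclast markers (Ptprc, Cd68, Acp5 and Csf1r) summed to 24.0 to 28.6 CPM in control static, 15.5 to 23.7 CPM in control FFSS and 2.91 to 3.45 CPM in DKO libraries. Most of this was Cd68, with 23.6 to 28.2, 14.2 to 22.8 and 2.17 to 2.86 CPM in the same order. Ptprc and Acp5 had at most 3 counts in any library. Csf1r did not follow, with 0.260 to 0.423 CPM in control static, 0.617 to 1.17 CPM in control FFSS and 0.416 to 0.833 CPM in DKO libraries. Skeletal muscle markers summed to 3.86 to 10.4 CPM over all libraries. Both the osteoblast and the myeloid sums were thus lower in every control FFSS library than in every control static library. Most of the osteoblast sum was Col1a1, with 14907 to 18274 CPM in control static and 5284 to 14913 CPM in control FFSS libraries, so its ranges met. Runx2, Sp7 and Alpl were lower in every control FFSS library. Bglap overlapped, with 13.2 to 17.4 CPM in control static and 6.69 to 23.0 CPM in control FFSS libraries. The osteocyte, chondrocyte and muscle sums of control static and control FFSS libraries overlapped. Endothelial and adipocyte markers summed to at most 1.01 CPM in any library. Fewer cells of a kind and less RNA per cell cannot be told apart in bulk RNA, and the part of these markers in the differences of the members was not tested.

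The same 4 members were the higher ones under FFSS. Egr3, Nr4a1, Nr4a2 and Nr4a3 were higher by more than 2-fold in DKO FFSS than in control FFSS cells, and the other 6 members were lower by the adjusted p alone. Over all genes tested 27.0% were higher and 29.6% lower, and 17.2% passed with more than a 2-fold change. Nr4a3 was 7.68-fold higher (edgeR log2 fold change 2.94 ± 0.14 SE, adjusted p = 1.23e-09), with 4.01 ± 0.892 CPM in control and 30.8 ± 0.471 CPM in DKO cells. Nr4a2 was 3.16-fold higher (edgeR log2 fold change 1.66 ± 0.15 SE, adjusted p = 4.91e-07), Nr4a1 2.94-fold (edgeR log2 fold change 1.56 ± 0.12 SE, adjusted p = 1.24e-07) and Egr3 2.47-fold (edgeR log2 fold change 1.30 ± 0.13 SE, adjusted p = 9.74e-07).

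The 6 lower members differed by at most 1.71-fold under FFSS, the value of Ier3 (edgeR log2 fold change −0.77 ± 0.10 SE, adjusted p = 1.4e-05). Maff was 1.66-fold lower (edgeR log2 fold change −0.73 ± 0.15 SE, adjusted p = 0.00143), Egr2 1.39-fold (edgeR log2 fold change −0.48 ± 0.12 SE, adjusted p = 0.00437) and Ier2 1.299-fold (edgeR log2 fold change −0.38 ± 0.065 SE, adjusted p = 0.000201). Ier5 passed here, 1.27-fold lower (edgeR log2 fold change −0.35 ± 0.11 SE, adjusted p = 0.0160), although control FFSS replicate 1, at 79.2 CPM, lay below the DKO FFSS range of 80.3 to 82.2 CPM. Leaving out control FFSS replicate 2 or 3 lost the call of Ier5 (edgeR adjusted p = 0.0727 and edgeR adjusted p = 0.0721), as did a fit of the 6 libraries alone (edgeR adjusted p = 0.0876), and without replicate 1 its log2 fold change was −0.51, edgeR adjusted p = 1.68e-09. Egr1 was 1.196-fold lower (edgeR log2 fold change −0.26 ± 0.10 SE, adjusted p = 0.0327). It did not pass without control FFSS replicate 1 (edgeR adjusted p = 0.0518) or 3 (edgeR adjusted p = 0.125), or without DKO FFSS replicate 2 (edgeR adjusted p = 0.0792) or 3 (edgeR adjusted p = 0.117).

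**Figure D3:**
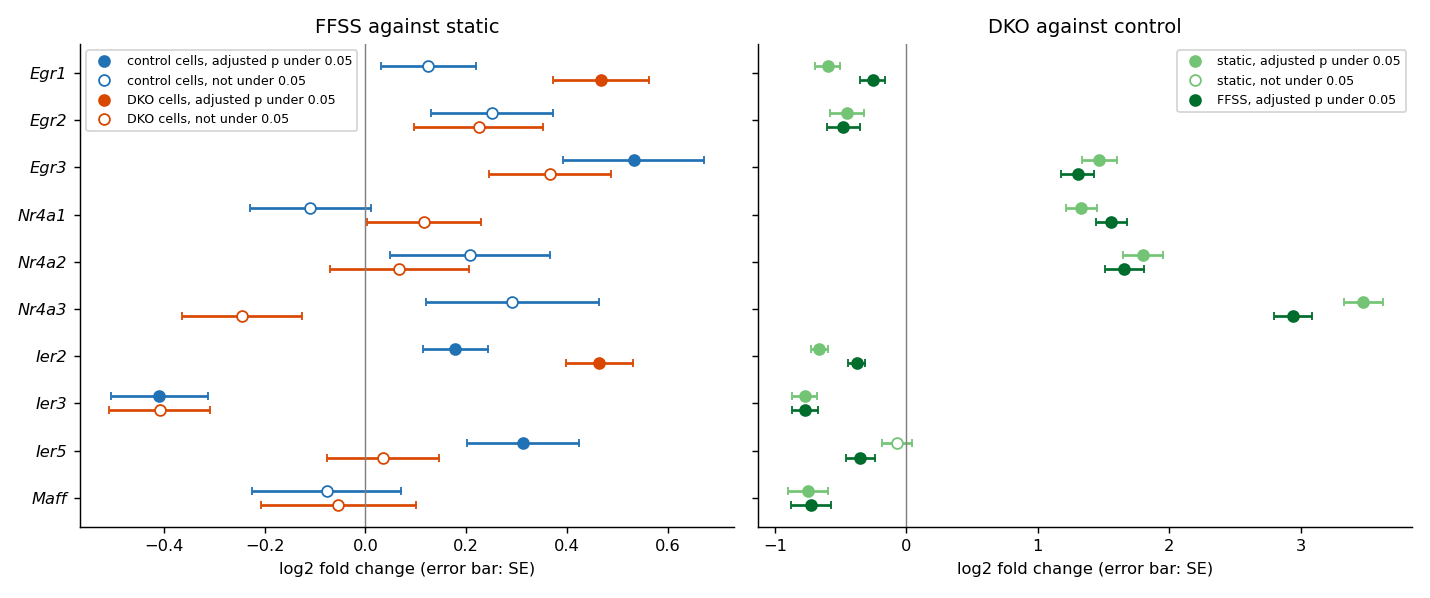
Log2 fold changes with their standard errors for the 10 genes, FFSS against static in control and DKO cells (left) and DKO against control in static and FFSS cells (right). Filled points have an edgeR adjusted p under 0.05. Egr3 and the 3 NR4A genes lie beyond 1 on the log2 scale between genotypes, and no gene does so between FFSS and static cells.

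The makeup of each family changed with genotype. Summed over the 3 genes, the NR4A level was 15.1 ± 0.254 CPM per kilobase in control static and 44.8 ± 2.25 in DKO static cells (SD, n = 3 each). Nr4a1 made up 82.3 ± 1.17% of the NR4A sum in control static and 69.9 ± 0.768% in DKO static cells, while Nr4a3 made up 3.62 ± 0.0681% and 13.6 ± 1.43%. The Nr4a2 share was nearer in the 2 genotypes, with 14.1 ± 1.11% and 16.6 ± 0.687%. The EGR sum was 59.1 ± 3.16 CPM per kilobase in control static and 45.2 ± 5.21 in DKO static cells. Egr3 made up 4.75 ± 0.724% of it in control static and 17.3 ± 2.62% in DKO static cells, and Egr1 87.4 ± 0.610% and 75.1 ± 3.51%.

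Among the IER genes, of which Ier3 is a relative by name only, the shares of Ier3 and Ier2 moved with FFSS in both genotypes. Ier3 made up 48.1 ± 1.39% of the IER sum in control static and 37.4 ± 4.198% in control FFSS cells (SD, n = 3 each). In DKO cells it made up 41.6 ± 3.998% when static and 31.0 ± 1.09% under FFSS. The share of Ier2 was 32.0 ± 0.235% and 37.2 ± 0.267% in control cells and 30.1 ± 1.88% and 40.7 ± 1.36% in DKO cells, static and FFSS respectively. The share of Ier5 was 19.9 ± 1.29% and 25.3 ± 4.26% in control cells, where FFSS replicate 1 (20.5%) lay within the static range of 18.6 to 21.2%, and 28.3 ± 2.47% and 28.3 ± 0.380% in DKO cells. The IER sum was 128 ± 2.15 and 124 ± 5.52 CPM per kilobase in control static and FFSS cells, and 86.0 ± 6.43 and 87.5 ± 1.85 in DKO static and FFSS cells. These shares are descriptions, since shares of 1 sum depend on each other.

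**Figure D4:**
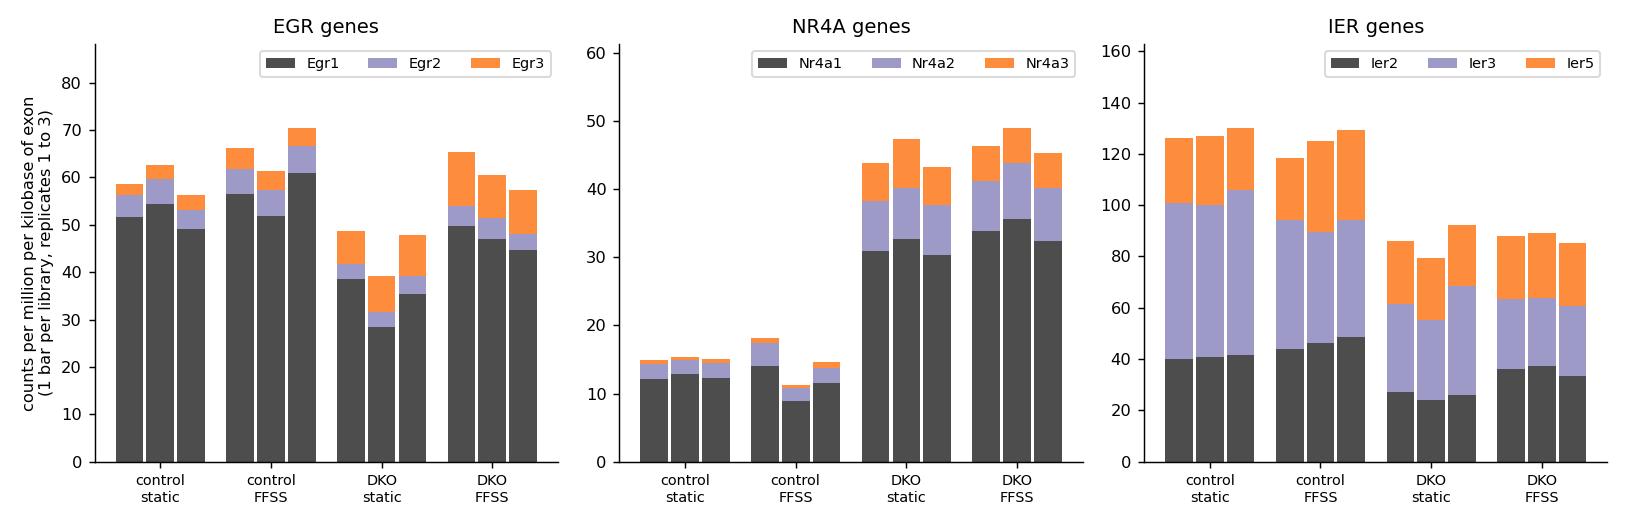
Summed level of the EGR, NR4A and IER genes in CPM per kilobase of exon, 1 bar per library in the order of replicates 1 to 3, divided into the genes of each group. The NR4A sums lie between 43.2 and 49.0 in DKO libraries and between 11.3 and 18.1 in control libraries, and the Nr4a3 segment is visible mainly in DKO libraries.

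The relatives and partners of the members were followed in a list of 18 symbols, of which 15 gene IDs were tested. With FFSS in control cells 3 were higher, 7 lower and 5 did not pass. The small MAF gene Mafk was higher (edgeR log2 fold change 0.67 ± 0.12 SE, adjusted p = 0.00121), as were Bach2 (edgeR log2 fold change 0.54 ± 0.19 SE, adjusted p = 0.0415) and Ier5l (edgeR log2 fold change 0.35 ± 0.092 SE, adjusted p = 0.0102). Nab2, a corepressor of EGR proteins, was lower (edgeR log2 fold change −0.52 ± 0.083 SE, adjusted p = 0.000521), as were Rxra (edgeR log2 fold change −0.50 ± 0.11 SE, adjusted p = 0.00579), a nuclear receptor that pairs with Nr4a1 and Nr4a2, and Nfe2l2 (edgeR log2 fold change −0.31 ± 0.07 SE, adjusted p = 0.00478), a partner of small MAF proteins. The median of the list was −0.16. Without control FFSS replicate 1 there were 3 higher and 9 lower. Counts without that library, here and for the lists that follow, stand against larger shares of all genes past the threshold in that fit: 54.98% for FFSS in control cells, 10.5% for FFSS in DKO cells, 37.6% for the interaction, 63.8% between static and 65.0% between FFSS genotypes. In the fit of all libraries 17.7% of all genes were higher and 18.1% lower for FFSS in control cells. For FFSS in DKO cells these shares were 0.376% and 0.497%, and for the interaction 2.28% and 1.68%. Between static genotypes they were 27.0% and 27.2%, and between FFSS genotypes 27.0% and 29.6%.

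In DKO cells 0 of these 15 passed with FFSS by edgeR, against 1 by DESeq2 and 0 by limma-voom, and 2 had an unadjusted edgeR p under 0.05. Without control FFSS replicate 1, 2 were higher and 1 was lower. Nab2 was the 1 gene of the list with an interaction that passed (edgeR log2 fold change 0.58 ± 0.12 SE, adjusted p = 0.0175), its level being 160.6 and 112 CPM in control static and FFSS cells and 204 and 213 CPM in DKO cells. DESeq2 gave 2 such genes and limma-voom 1. Without that library 8 interactions were higher and 3 lower. Between genotypes in static cells 3 of the 15 were higher in DKO cells and 4 lower. Ier3ip1 (edgeR log2 fold change 0.57 ± 0.12 SE, adjusted p = 0.00128), Bach2 (edgeR log2 fold change 0.55 ± 0.19 SE, adjusted p = 0.0259) and Nab2 (edgeR log2 fold change 0.35 ± 0.082 SE, adjusted p = 0.00253) were the higher ones, and Bach1 (edgeR log2 fold change −0.58 ± 0.06 SE, adjusted p = 1.78e-06), Nab1 (edgeR log2 fold change −0.52 ± 0.077 SE, adjusted p = 5.25e-05) and Nfe2l2 (edgeR log2 fold change −0.39 ± 0.07 SE, adjusted p = 0.000291) the lowest. Without that library 5 were higher and 5 lower. Under FFSS 5 were higher in DKO cells, led by Nfe2 (edgeR log2 fold change 1.17 ± 0.41 SE, adjusted p = 0.0243), Ier3ip1 (edgeR log2 fold change 0.94 ± 0.12 SE, adjusted p = 1.94e-05) and Nab2 (edgeR log2 fold change 0.93 ± 0.083 SE, adjusted p = 4.59e-07), and 4 lower, led by Bach1 (edgeR log2 fold change −0.44 ± 0.06 SE, adjusted p = 2.48e-05). Without that library these counts were 6 and 4. Nfe2 was near the floor of 3 counts, with 0.317 ± 0.0853 CPM in control FFSS and 0.722 ± 0.109 CPM in DKO FFSS cells (SD, n = 3 each).

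Of 40 other early response genes, 18 were higher with FFSS in control cells, 12 were lower and 10 did not pass, with a median log2 fold change of 0.24. Over all genes tested 17.7% were higher and 18.1% lower. Without control FFSS replicate 1 there were 22 higher and 10 lower of the 40. The highest were Sgk1 (edgeR log2 fold change 1.68 ± 0.30 SE, adjusted p = 0.00302), a kinase regulated by osmotic and hormonal signals, Fosb (edgeR log2 fold change 1.32 ± 0.17 SE, adjusted p = 0.000131), a subunit of AP-1, and Ctgf (edgeR log2 fold change 1.29 ± 0.41 SE, adjusted p = 0.0383), a secreted matricellular protein. The lowest were the Krüppel-like factors Klf4 (edgeR log2 fold change −1.16 ± 0.23 SE, adjusted p = 0.00423) and Klf2 (edgeR log2 fold change −1.10 ± 0.25 SE, adjusted p = 0.00893), followed by Zfp36l1 (edgeR log2 fold change −0.94 ± 0.18 SE, adjusted p = 0.00351), which promotes decay of AU-rich mRNA. The share of this list that passed was not tested against that of the members.

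In DKO cells 1 of the 40, Junb, rose with FFSS (edgeR log2 fold change 0.55 ± 0.09 SE, adjusted p = 0.0139), with 0 lower by edgeR, DESeq2 or limma-voom. DESeq2 gave 7 higher and limma-voom 1, and 12 had an unadjusted edgeR p under 0.05. Without control FFSS replicate 1, 12 were higher and 2 lower. For the interaction Id2 (edgeR log2 fold change 0.53 ± 0.068 SE, adjusted p = 0.00111) and Id3 (edgeR log2 fold change 0.47 ± 0.073 SE, adjusted p = 0.00428), inhibitors of basic helix-loop-helix factors, were higher and Fosb (edgeR log2 fold change −1.13 ± 0.29 SE, adjusted p = 0.0434) was lower. By limma-voom 4 were higher and 0 lower, so Fosb did not pass there, and by DESeq2 7 were higher and 3 lower. Without that library 9 were higher and 15 lower. In static cells 8 of the 40 were higher in DKO than in control cells and 17 lower, or 12 and 20 without that library. Id1 (edgeR log2 fold change 1.36 ± 0.10 SE, adjusted p = 5.24e-08), Phlda1 (edgeR log2 fold change 1.21 ± 0.11 SE, adjusted p = 5.95e-07) and Id2 (edgeR log2 fold change 1.00 ± 0.048 SE, adjusted p = 1.21e-09) were highest, and the AP-1 subunits Fosl1 (edgeR log2 fold change −2.13 ± 0.22 SE, adjusted p = 3.06e-06) and Jun (edgeR log2 fold change −1.43 ± 0.12 SE, adjusted p = 4.2e-07) and the phosphatase Dusp4 (edgeR log2 fold change −1.35 ± 0.19 SE, adjusted p = 5.13e-05) lowest. Under FFSS 9 were higher in DKO cells and 17 lower, or 10 and 23 without that library. Phlda1 (edgeR log2 fold change 1.57 ± 0.11 SE, adjusted p = 5.42e-08), Id2 (edgeR log2 fold change 1.53 ± 0.049 SE, adjusted p = 3.14e-11) and Klf2 (edgeR log2 fold change 1.43 ± 0.25 SE, adjusted p = 0.000798) were the highest, and Fosl1 (edgeR log2 fold change −2.13 ± 0.21 SE, adjusted p = 2.28e-06), Fosb (edgeR log2 fold change −2.11 ± 0.19 SE, adjusted p = 4.56e-07) and Dusp4 (edgeR log2 fold change −1.99 ± 0.19 SE, adjusted p = 1.43e-06) the lowest.

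The list of upstream factors held 27 symbols, among them serum response factor and its partners, the CREB and MEF2 families, kinases of the ERK cascade and the class IIa deacetylases, and 27 gene IDs were tested. With FFSS in control cells 6 were higher and 8 lower, against 17.7% and 18.1% of all genes. Without control FFSS replicate 1 these counts were 9 and 12. Hdac9 (edgeR log2 fold change −2.22 ± 0.19 SE, adjusted p = 5.6e-06), Mef2c (edgeR log2 fold change −1.45 ± 0.38 SE, adjusted p = 0.0170) and Hdac5 (edgeR log2 fold change −0.71 ± 0.079 SE, adjusted p = 3.58e-05) were the lowest, and without that library Mef2c was at −2.18. The highest were the first Hdac4 gene ID (edgeR log2 fold change 0.50 ± 0.13 SE, adjusted p = 0.00882), the ternary complex factor Elk3 (edgeR log2 fold change 0.48 ± 0.073 SE, adjusted p = 0.000379) and the serum response factor coactivator Mkl1 (edgeR log2 fold change 0.35 ± 0.09 SE, adjusted p = 0.00951). In DKO cells Map2k1 (edgeR log2 fold change −0.29 ± 0.05 SE, adjusted p = 0.0155) and Rps6ka1 (edgeR log2 fold change −0.40 ± 0.078 SE, adjusted p = 0.0298), a pair of kinases of the ERK cascade, were lower with FFSS and 0 were higher by edgeR, DESeq2 or limma-voom, and 4 had an unadjusted edgeR p under 0.05. Without that library 1 was higher and 6 were lower.

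For the interaction Hdac9 (edgeR log2 fold change 1.86 ± 0.23 SE, adjusted p = 0.000953) and Hdac5 (edgeR log2 fold change 0.85 ± 0.11 SE, adjusted p = 0.00152) were higher and Elk3 (edgeR log2 fold change −0.53 ± 0.10 SE, adjusted p = 0.0138) lower. DESeq2 gave 4 higher and 2 lower and limma-voom 2 and 1, and there were 9 higher and 7 lower without control FFSS replicate 1. In static cells 5 of the 27 were higher in DKO cells and 13 lower, against 27.0% and 27.2% of all genes. Without that library these counts were 6 and 14. Hdac9 (edgeR log2 fold change 2.23 ± 0.14 SE, adjusted p = 1.27e-08), Mef2d (edgeR log2 fold change 1.37 ± 0.059 SE, adjusted p = 4.71e-10) and Mef2a (edgeR log2 fold change 0.78 ± 0.071 SE, adjusted p = 4.87e-07) were the highest. Srf (edgeR log2 fold change −0.70 ± 0.21 SE, adjusted p = 0.0162), which binds the CArG box, and Hdac5 (edgeR log2 fold change −0.65 ± 0.079 SE, adjusted p = 7.94e-06) were, with the first Hdac4 gene ID (edgeR log2 fold change −0.85 ± 0.14 SE, adjusted p = 0.000102), the lowest. Under FFSS 5 were higher and 12 lower in DKO cells, or 8 and 14 without that library. Hdac9 (edgeR log2 fold change 4.09 ± 0.17 SE, adjusted p = 3.6e-10), Mef2c (edgeR log2 fold change 1.76 ± 0.38 SE, adjusted p = 0.00344) and Mef2d (edgeR log2 fold change 1.57 ± 0.059 SE, adjusted p = 1.31e-10) were the highest, and Mef2c, which did not pass between static genotypes, was at 2.48 without that library. The first Hdac4 gene ID (edgeR log2 fold change −1.48 ± 0.13 SE, adjusted p = 5.65e-07), Srf (edgeR log2 fold change −0.70 ± 0.21 SE, adjusted p = 0.0163) and the second Hdac4 gene ID (edgeR log2 fold change −0.50 ± 0.14 SE, adjusted p = 0.00638) were the lowest.

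The genes whose pattern over the 12 libraries was most like that of a member were sought among tested genes with an average log2 CPM above 1. For Egr1 the closest was another member, Ier2 (Pearson r = 0.953), followed by Crlf2 (0.937) and Ccdc9 (0.932). For Nr4a1 these were Irx3 (0.996), Fdps (0.995) and Itpkb (0.995), and for Ier3 Ddit4 (0.982), Msl3l2 (0.982) and Arrb1 (0.981). The 12 points are 4 groups of 3 libraries, so these values rest mainly on differences between groups, and they are a description of genes picked for their likeness.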

How the data were processed

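RNA of Ocy454 cells was sequenced as 12 libraries of single-end reads. The authors aligned reads with STAR to mm9 and counted them over Ensembl genes with HTSeq (the study's methods name more than 1 version), without regard to strand. The deposited values are raw counts per gene, 1 file per library, each ending in 5 summary lines that were kept out of library sizes and tests. Between 17.6 and 19.2 M reads per library were assigned to genes, and a floor of 3 counts lay between 0.156 and 0.171 CPM, which covers counting error only.

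Counts were analysed in R 4.3.3 with edgeR 4.0.16 (TMM normalization, robust quasi-likelihood F-test, 1 model of 4 groups over 12 libraries). Genes with 0 counts in 2 or more libraries were left out, as in the study's methods, leaving 14904 of 37583 gene IDs (24360 had a count). P-values were adjusted over all genes tested by the Benjamini-Hochberg method with a threshold of 0.05, and "more than 2-fold" needs both. CPM values use TMM-scaled library sizes without a pseudocount, and per-library log2 CPM a prior count of 2. Levels per length divide CPM by the summed exon length of the gene.

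The fit was tested on simulated counts with 200 changed genes. Alternatives were RLE size factors, library totals alone, edgeR's default expression filter, no filter, DESeq2 1.42.0, limma-voom (limma 3.58.1), a fit without robust estimation, a replicate block, the share of reads outside genes as a covariate, the 6 libraries of a comparison alone, leaving out each library, and a limit of 1.5-fold. Counts of the gene lists without control FFSS replicate 1 were added after the data were seen. All 10 members are named, and of each list up to 3 past the threshold with the largest change in each direction. Genes like a member were sought for Egr1, Nr4a1 and Ier3. The members and lists were chosen with earlier results of these data known. Promoter sequences are from RefSeq (GRCm38.p6).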

Additional observations from a re-analysis of the deposited data

Results flagged for a closer look

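The share of reads outside annotated genes, which is not part of the gene counts and entered the gene comparisons only as a covariate in 1 alternative, was higher under FFSS in both genotypes. It was 8.37% on average in control FFSS libraries against 5.14% in control static libraries, and 8.19% in DKO FFSS against 7.11% in DKO static libraries. In each genotype every FFSS library was above every static library. The exact two-sided permutation test gave p = 0.1 for each genotype, the smallest value that 3 against 3 libraries allow. Control FFSS replicate 1, with 5.87%, was nearer to the static libraries than replicates 2 and 3, and it was also the library that stood apart for Nr4a2, Ier5 and Maff.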

How the results depend on the processing

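Of 50 tests (10 genes, 5 comparisons), 25 passed in the reported fit, and 18 of these passed under every alternative run. Of 1090 alternative values, 994 kept direction and side of the threshold, 47 were no longer past it, 21 were newly past it and 28, in 10 tests, changed sign. Egr3 and the 3 NR4A genes were higher in DKO cells by more than 2-fold under every alternative run.

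Of the genes past the threshold, FFSS in control cells gave 2 without a filter on low counts (all genes 19.4%), 2 with the 6 libraries alone (14.7%), 3 with the outside share as covariate (15.4%) and 2 to 6 when 1 library was left out (24.2 to 54.98%), in place of 4 (35.8%). FFSS in DKO cells gave 1 with the replicate block (0.470%), 5 with the outside share as covariate (9.95%), 4 with the 6 libraries (11.2%) and 0 to 4 when 1 library was left out (0.0866 to 10.5%), in place of 2 (0.872%). The interaction gave 1 with DESeq2 (7.54%), 2 with the covariate (5.86%) and 0 to 3 when 1 library was left out (1.199 to 37.6%), in place of 0 (3.97%). Between genotypes, leaving out 1 library gave 9 to 9 in static and 8 to 10 in FFSS cells, with 48.3 to 63.8% and 49.8 to 65.0% of all genes. At more than 1.5-fold 8 genes in place of 4 differed between static genotypes, with 28.4% of all genes.

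Signs changed as follows, and the cause was not tested. Scaling by library totals alone, which moved the median of all genes to 0.13 for FFSS in control cells and to −0.13 for the interaction, gave 0.0081 for Nr4a1 and 0.058 for Maff (FFSS in control cells) and −0.11 for Ier3 and −0.10 for Maff (interaction). The covariate gave 0.21 for Nr4a1 and −0.15 for Ier5 (FFSS in control cells), −0.11 for Ier5 (FFSS in DKO cells), and −0.078 for Ier3 and 0.034 for Ier5 (interaction). The default filter gave −0.016 for the interaction of Ier3. Leaving out 1 library gave, for FFSS in control cells, −0.21 to 0.13 for Maff, −0.28 to 0.047 for Nr4a1 and −0.063 to 0.37 for Nr4a2. For the interaction it gave −0.13 to 0.087 for Egr2, −0.094 to 0.14 for Ier3, −0.18 to 0.16 for Maff and −0.30 to 0.13 for Nr4a2.

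Replicate numbers did not pair libraries: same-numbered libraries had a mean correlation of deviations of 0.00226 (−0.0603 to 0.0631). The number of libraries whose best partner in every other group had the same number was 0. The replicate block took the count of all genes from 5338 to 5147 for FFSS in control cells and from 130 to 70 for FFSS in DKO cells.

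Over all genes, FFSS in DKO cells gave 400 with DESeq2, 1483 with the covariate, 1787 with the 6 libraries and 1571 without control FFSS replicate 1, in place of 130. The interaction gave 1124 with DESeq2 and 5634 without that library, in place of 591. FFSS in control cells gave 2290 with the covariate, 2373 with the 6 libraries and 8235 without that library, in place of 5338. Each member had at least 61 counts in every library, and for those with the fewest (Egr3, Nr4a2 and Nr4a3 in control cells) counting error limits the precision too.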
